A study of Mus musculus with 9 samples.

Results

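The genes described here copy DNA and supply its building blocks. A list of 51 genes was drawn up in 5 steps, namely origin licensing, helicase and firing, polymerases and clamp, nucleotide supply, and chromatin copying, and every probe set whose annotation names 1 of them alone was taken. This gave 115 probe sets of 50 genes, of 34945 probe sets and 18193 genes measured in this way. Chaf1a, on the list, had no probe set that names it alone and is not analysed here. Of the 50 genes, 8 act in licensing, 14 at the helicase, 20 at polymerases and clamp, 5 in nucleotide supply and 3 in chromatin copying. Each gene is represented by its brightest probe set over all arrays.

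The RNA came from endothelial cells (ECs) of mouse lung, hybridized to Affymetrix Mouse Genome GeneChip arrays. All mice were of the NSG strain, which lacks functional lymphocytes and accepts human tumors. There were 3 groups of 3 arrays, labelled as biological replicates. In the healthy IgG group, mice without cancer cells received control IgG. In the metastatic IgG group, MDA-MB-231-LM2 human breast cancer cells, selected for growth in lung, had been injected intravenously 3 weeks before and the mice had received control IgG. In the metastatic B20 group, the injection was the same and the mice received B20, an antibody that neutralizes VEGFA, at 10 mg per kg. Mice were 6 to 8 weeks of age when injected, and the healthy mice were matched to them in age. Metastatic lungs were taken on day 21, and mice of comparable bioluminescent load were chosen. Whole lungs were sorted for cells with CD31 on their surface, leaving out cells with leukocyte markers (CD45, CD11b), epithelial CD326, the mesenchymal markers CD140a and CD140b, or the GFP of the cancer cells, so ECs inside and outside metastases are mixed. In such bulk samples, fewer ECs copying their DNA and less of each transcript per cell cannot be told apart.

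DNA replication begins with licensing, in which the origin recognition complex, Cdc6 and Cdt1 load the Mcm2 to Mcm7 ring onto DNA. The kinase Cdc7 with its partner Dbf4 then lets Cdc45 and the GINS complex join the ring, which unwinds the double helix. Polymerase alpha with primase starts each new strand, and polymerases epsilon and delta extend it, held on DNA by the sliding clamp Pcna. Lung ECs of adult mice rarely divide at rest, and VEGFA, a growth factor for ECs, drives them into the cell cycle. E2F transcription factors switch many of these genes on as cells enter the phase of DNA synthesis.

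Between metastatic IgG and healthy IgG, 28 of the 50 genes rose and 1 fell at an adjusted p under 0.05, against 5.55% of all 18193 genes called higher and 3.46% called lower. The median log2 difference was 0.52 over the 50 genes and 0.00 over all genes, and 46 of the 50 lay above 0. Licensing had the largest median of the 5 steps, 0.82, with 6 of 8 genes higher. At the helicase 10 of 14 rose and 1 fell, with a median of 0.71. Polymerases and clamp showed the smallest median of the 5 steps, 0.30, with 7 of 20 higher. Nucleotide supply had 3 of 5 higher (median 0.59) and chromatin copying 2 of 3 (median 0.66). Differences between the steps were not tested, here or below.

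The tests here and below are limma's moderated tests, adjusted over all genes by the Benjamini-Hochberg method, and a difference is given as a mean log2 difference ± standard error for 3 arrays against 3. With 3 arrays a group, their number limits the precision. Without each array in turn, 21 to 24 of the 50 genes were called, and 20 of the 29 calls were kept each time.

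**Figure D1:**
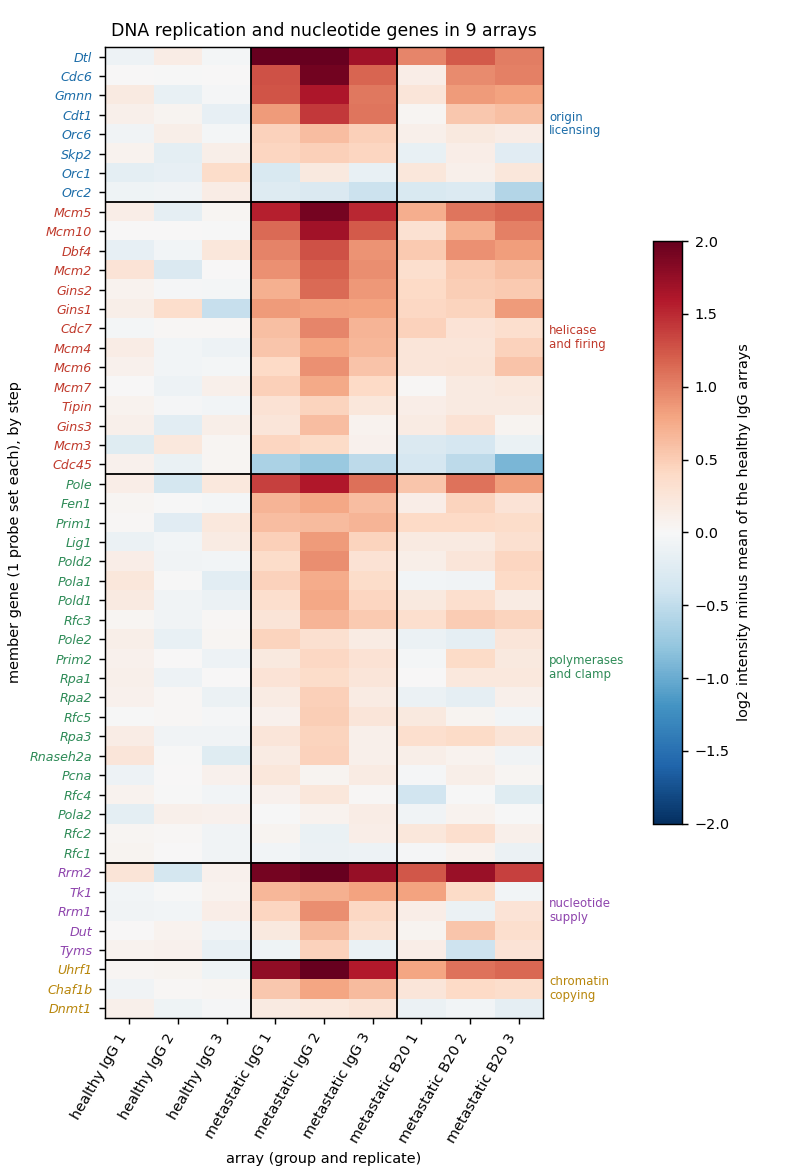
Colour gives the log2 intensity of each of the 50 genes (rows, by step) in each of the 9 arrays (columns) minus the mean of the healthy IgG arrays, with colours ending at 2 and at -2. The metastatic IgG columns are the reddest, array 2 most of all, the metastatic B20 columns lie between, and Cdc45 is blue in all 6 metastatic arrays.

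The array of metastatic IgG replicate 2 was the highest in every step. Averaged over the 50 genes, the deviation from each gene's mean over 9 arrays was -0.25, -0.34 and -0.30 in healthy IgG, 0.23, 0.47 and 0.21 in metastatic IgG, and -0.10, 0.03 and 0.03 in metastatic B20. The 3 groups did not overlap in this average. Without metastatic IgG replicate 2, the median difference from healthy IgG was 0.42 and 23 genes were called.

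The sorted cells carried endothelial markers at high levels, with all 12 at or above the 88.1 percentile of genes and Pecam1, which encodes CD31, at 99.8. The mean log2 level of these 12 ranged from 12.74 to 12.79 in healthy IgG, 12.77 to 12.83 in metastatic IgG and 12.79 to 12.81 in metastatic B20. Their median difference was 0.01 with metastases and 0.00 under B20 relative to IgG. With metastases 1 of the 12, Emcn, was called higher (0.43, adjusted p = 0.0393) and 0 lower. Between metastatic B20 and healthy IgG, Emcn was called higher (0.50, adjusted p = 0.0167) and Eng lower (-0.38, adjusted p = 0.0348). Macrophage markers moved with metastases. Of 12, 10 were called higher and their mean level ranged from 8.38 to 8.74 in healthy IgG, 9.59 to 9.86 in metastatic IgG and 9.56 to 10.0 in metastatic B20. Their part in the differences with metastases was not tested. Between B20 and IgG none of the 12 was called, and their median difference was 0.00, with 6 above 0 and 6 below. The values ran from -0.33 for Marco to 0.39 for Cd14. At an unadjusted p under 0.05, 2 were higher and 1 lower. The part of macrophage markers in the B20 difference of the 50 genes was not tested. Among markers of other cells, 1 of 7 leukocyte, 3 of 7 fibroblast, 2 of 7 pericyte and 1 of 9 epithelial genes were called higher with metastases, and 1 fibroblast gene lower. Under B20 relative to IgG, none of these was called at an adjusted p under 0.05, and the medians were 0.20 for leukocyte, 0.01 for fibroblast, 0.06 for pericyte and -0.12 for epithelial markers. Ptprc, which encodes the CD45 used to exclude cells, was at the 53.9 percentile, and intensities have no zero on this scale. Percentiles of all the non-endothelial markers ran from 9 for Cd3e to 99.6 for the epithelial Sftpc. Col3a1 (95.5) and Inmt (91.5) of fibroblasts and Lyz2 (93.9) and Ctss (89.5) of macrophages also lay above Emcn, the dimmest endothelial marker. The rest lay below it. How much RNA of other cells the samples held was not tested.

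RNA quality moved with the groups. The log2 difference between the 3′ and 5′ probe sets of actin, which grows as RNA is shortened, was 0.609 to 0.620 in healthy IgG, 0.488 to 0.555 in metastatic IgG and 0.526 to 0.620 in metastatic B20. Metastatic IgG replicate 2, highest for the replication genes, had the lowest value, and the part of this in the results was not tested.

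The promoters of the 5 genes with the largest differences, and that of Mcm6, which held the most motif matches, are shown because E2F factors act through such sequences. Printed are the 200 bases before the annotated start, 5′ to 3′ on the strand of the gene, from RefSeq windows of GRCm38.p6. Capitals mark matches to 4 E2F-type motifs, TTTCCCGC, TTTGGCGC, TTTCGCGC and TTTGCCGC, searched on both strands.
Rrm2 (chr12:24708054-24708253, forward strand): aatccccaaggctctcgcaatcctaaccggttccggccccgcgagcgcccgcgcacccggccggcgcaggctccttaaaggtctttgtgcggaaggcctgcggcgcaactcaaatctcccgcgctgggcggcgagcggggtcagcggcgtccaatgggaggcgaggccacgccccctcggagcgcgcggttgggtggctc
Dtl (chr1:191575545-191575744, reverse strand): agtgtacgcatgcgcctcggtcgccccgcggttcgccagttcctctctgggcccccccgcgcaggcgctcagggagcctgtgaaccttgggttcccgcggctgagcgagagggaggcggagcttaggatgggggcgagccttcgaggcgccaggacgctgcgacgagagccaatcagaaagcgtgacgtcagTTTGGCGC
Uhrf1 (chr17:56304113-56304312, forward strand): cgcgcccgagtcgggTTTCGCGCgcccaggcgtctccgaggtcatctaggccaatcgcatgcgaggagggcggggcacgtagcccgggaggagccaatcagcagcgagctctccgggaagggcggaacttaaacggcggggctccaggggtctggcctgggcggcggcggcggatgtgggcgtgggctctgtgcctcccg
Mcm5 (chr8:75109309-75109508, forward strand): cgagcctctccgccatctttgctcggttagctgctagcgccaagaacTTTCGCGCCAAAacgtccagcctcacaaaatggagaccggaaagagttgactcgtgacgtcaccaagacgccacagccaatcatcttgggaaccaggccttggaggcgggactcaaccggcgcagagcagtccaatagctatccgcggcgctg
Cdc6 (chr11:98907951-98908150, forward strand): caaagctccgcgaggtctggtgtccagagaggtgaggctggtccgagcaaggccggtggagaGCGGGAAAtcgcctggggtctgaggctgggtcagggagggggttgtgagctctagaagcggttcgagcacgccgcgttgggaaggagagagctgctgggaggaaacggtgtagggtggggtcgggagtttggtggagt
Mcm6 (chr1:128359706-128359905, reverse strand): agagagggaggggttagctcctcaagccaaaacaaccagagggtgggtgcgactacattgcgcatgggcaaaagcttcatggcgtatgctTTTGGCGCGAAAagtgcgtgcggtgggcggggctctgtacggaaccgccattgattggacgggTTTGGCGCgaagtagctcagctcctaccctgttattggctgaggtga

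Uhrf1 has 2 annotated windows, and the one with a match is shown. The match of Dtl began 8 bases before the start, that of Cdc6 138 bases before it on the opposite strand, and that of Uhrf1 185 bases before it. In Mcm5 a pair of matches on opposite strands, 153 and 149 bases before the start, overlapped by 4 bases. Mcm6 carried the same arrangement 110 and 106 bases before its start and another match at 47. In Rrm2, which showed the largest difference of the 50 genes, none of these letters occurred in the 200 bases shown.

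In windows of 300 bases, 250 before and 50 after the start, 16 of the 42 genes with a window (38.1%) held a match, against 546 of 14368 genes on the arrays (3.8%). By step, matches were found for 4 of 7 licensing genes, 5 of 10 helicase genes, 5 of 17 polymerase and clamp genes, 0 of 5 nucleotide genes and 2 of 3 chromatin genes. Gins1, Gins2, Gmnn, Mcm4, Pole, Prim2, Rfc2 and Tipin had no window. A match is only a string of letters, and no match says only that these letters were not in the window. The median difference between metastatic IgG and healthy IgG was 0.54 for the 16 genes with a match and 0.41 for the 26 without, and 11 and 12 of them rose. Their ranges overlapped, from -0.09 to 1.93 with a match and from -0.64 to 1.98 without. Under B20 against IgG the medians were -0.39 and -0.28.

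**Figure D2:**
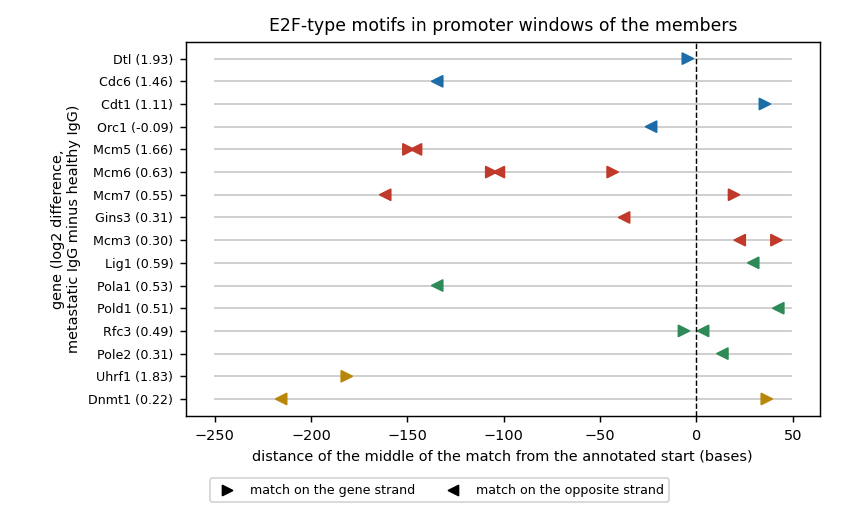
Triangles give the distance in bases from the annotated start of the middle of each E2F-type match, for the 16 genes with a match, and point along the strand. Numbers beside the names are log2 differences between metastatic IgG and healthy IgG, from -0.09 for Orc1 to 1.93 for Dtl, and the matches lie on both sides of the start.

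Among licensing genes, 5 loading factors and regulators rose, and 1 of the 3 origin recognition subunits. Dtl, the substrate receptor of a ubiquitin ligase that marks Cdt1 for destruction at DNA-bound Pcna, came first. Dtl measured 7.73, 7.98 and 7.78 in healthy IgG arrays, 9.85, 9.93 and 9.50 in metastatic IgG arrays and 8.81, 9.06 and 8.86 in metastatic B20 arrays (log2 intensity, here and below). All 3 metastatic IgG arrays lay above all B20 arrays, which in turn lay above all healthy ones. The difference between metastatic IgG and healthy IgG was 1.93 ± 0.13, a 3.81-fold higher intensity (adjusted p = 0.000117). The 6 probe sets of Dtl ranged from 0.07 to 1.93, and 2 were called higher on their own.

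Cdc6, which with Cdt1 brings the Mcm ring to origins, was dim and almost the same in the 3 healthy lungs. The median of all genes in those arrays was 8.87 to 8.88, and how close Cdc6 came to background was not tested. The log2 intensity of Cdc6 was 7.36, 7.35 and 7.36 in healthy lungs, 8.63, 9.28 and 8.53 in metastatic lungs under IgG and 7.49, 8.30 and 8.37 under B20. B20 replicate 1 was close to the healthy ones and the others were about 1 log2 unit above them. Cdt1 itself lies next in this chain. In the same order of groups, Cdt1 stood at 9.85, 9.80 and 9.57, then 10.60, 11.16 and 10.81, then 9.78, 10.29 and 10.35. Gmnn, or geminin, binds Cdt1 and blocks a repeat of licensing. Gmnn read 8.20, 7.87 and 8.00 without metastases, 9.29, 9.63 and 9.08 with metastases and IgG, and 8.27, 8.88 and 8.82 with metastases and B20. For Cdt1, B20 replicate 1 fell among the healthy arrays. Metastatic IgG exceeded healthy IgG by 1.46 ± 0.18 for Cdc6 (adjusted p = 0.00227), by 1.31 ± 0.15 for Gmnn (adjusted p = 0.00152) and by 1.11 ± 0.15 for Cdt1 (adjusted p = 0.00293). The 3 probe sets of Cdt1 ranged from 0.09 to 1.15, and 2 were called higher on their own.

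Skp2, the receptor of a different ubiquitin ligase that also acts on Cdt1, rose less. The log2 intensity of Skp2 was 8.65, 8.38 and 8.70 in healthy lungs, 9.01, 9.06 and 9.0 in metastatic lungs under IgG and 8.43, 8.70 and 8.35 under B20. Its metastatic IgG arrays lay close to each other and above every other array, and its B20 arrays overlapped the healthy ones. The difference from healthy IgG was 0.44 ± 0.10 (adjusted p = 0.0305), and this call was lost on leaving out any of the 6 arrays except healthy IgG replicate 3 (adjusted p = 0.0594 to 0.0864). Orc6, the smallest subunit of the origin recognition complex, rose by 0.52 ± 0.09 (adjusted p = 0.0104). Orc1, an ATPase of the same complex, showed the smallest difference of this step. Healthy lungs gave 7.95, 7.98 and 8.52 for Orc1, metastatic lungs gave 7.84, 8.35 and 8.00 under IgG, and those under B20 gave 8.38, 8.24 and 8.38. The 3 groups overlapped, with a difference of -0.09 ± 0.18 between metastatic IgG and healthy IgG (adjusted p = 0.825). The other probe set of Orc1 gave 0.33, also not called. Orc2 gave -0.33 ± 0.10 and did not pass (adjusted p = 0.0739).

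At the helicase, 5 of the 6 ring subunits rose, Mcm5 most. Mcm5 measured 9.57, 9.25 and 9.47 in healthy IgG arrays, 10.99, 11.34 and 10.94 in metastatic IgG arrays and 10.17, 10.50 and 10.58 in metastatic B20 arrays. No pair of groups overlapped, and the rise was 1.66 ± 0.13, or 3.15-fold (adjusted p = 0.000305). The 3 probe sets of Mcm5 ranged from 0.40 to 1.66, and 2 were called higher on their own. Mcm2, another subunit of the ring, also had separate groups. Its arrays read 9.80, 9.24 and 9.54 for healthy IgG, 10.44, 10.72 and 10.45 for metastatic IgG and 9.86, 10.05 and 10.13 for metastatic B20. Mcm2 rose by 1.01 ± 0.15 (adjusted p = 0.00462), Mcm4 by 0.66, Mcm6 by 0.63 and Mcm7 by 0.55. The call of Mcm6 was lost without healthy IgG replicate 2 or healthy IgG replicate 3 (adjusted p = 0.0688 to 0.0788), and that of Mcm7 without healthy IgG replicate 1, healthy IgG replicate 2 or metastatic IgG replicate 1 (adjusted p = 0.0508 to 0.0794).

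Mcm3, the remaining ring subunit, was bright in every group and did not pass in its brightest probe set. Mcm3 read 10.97, 11.43 and 11.25 without metastases, 11.65, 11.60 and 11.30 with metastases and IgG, and 10.92, 10.89 and 11.08 with metastases and B20. Healthy and metastatic IgG arrays overlapped, and the difference was 0.30 ± 0.14 (adjusted p = 0.249). Its 5 probe sets ranged from 0.27 to 0.55, and 2 of them were called higher when every probe set was tested on its own.

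Of the factors that convert the loaded ring into a moving helicase, 5 rose. Mcm10, needed for the ring to start unwinding, was nearly constant in healthy lungs, below the median of all genes there. The log2 intensity of Mcm10 was 8.07, 8.07 and 8.05 in healthy lungs, 9.19, 9.74 and 9.29 in metastatic lungs under IgG and 8.36, 8.78 and 9.07 under B20. The 3 groups were separate, and the rise with metastases was 1.35 ± 0.14 (adjusted p = 0.000912). Dbf4, the activating partner of the Cdc7 kinase, showed B20 arrays nearer to the metastatic IgG level. Values of Dbf4 were 8.72, 8.84 and 9.12 in the healthy group, 9.88, 10.16 and 9.79 in the metastatic IgG group and 9.41, 9.81 and 9.73 in the B20 group. It rose by 1.05 ± 0.13 (adjusted p = 0.00235), and Cdc7 by 0.75 ± 0.11 (adjusted p = 0.00434). Of the GINS subunits, Gins2 rose by 0.91 ± 0.11 and Gins1 by 0.82 ± 0.18, and Gins3 gave 0.31 ± 0.15 without passing (adjusted p = 0.277). The other probe set gave 0.09 for Dbf4, 0.13 for Cdc7, 0.25 for Gins2 and 0.28 for Gins1, with none called. When probe sets with names ending in _a_at, _s_at or _x_at were left out, the calls of Cdc7 (_a_at) and Gins2 (_s_at) were lost. For Gins1, the call was lost on leaving out any of the 6 arrays except healthy IgG replicate 2 and healthy IgG replicate 3 (adjusted p = 0.057 to 0.0852). Tipin, which with Timeless steadies the fork, gave 0.32 ± 0.09 and did not pass (adjusted p = 0.0598).

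Cdc45, the component of the helicase beside the ring and GINS, was the 1 gene called lower. Cdc45 read 10.71, 10.49 and 10.65 without metastases, 9.98, 9.87 and 10.09 with metastases and IgG, and 10.29, 10.10 and 9.70 with metastases and B20. All 6 metastatic arrays lay below all healthy arrays, with a difference of -0.64 ± 0.09 under IgG (adjusted p = 0.00532). Its other, dimmer probe set went the opposite way. That probe set measured 8.97, 8.58 and 9.09 in healthy IgG, 9.14, 9.26 and 8.96 in metastatic IgG and 8.99, 8.94 and 8.81 under B20, a difference of 0.24 that was not called (adjusted p = 0.382 over all probe sets). With the mean of both probe sets, Cdc45 was no longer called. Which of the 2 follows the Cdc45 transcript was not tested.

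**Figure D3:**
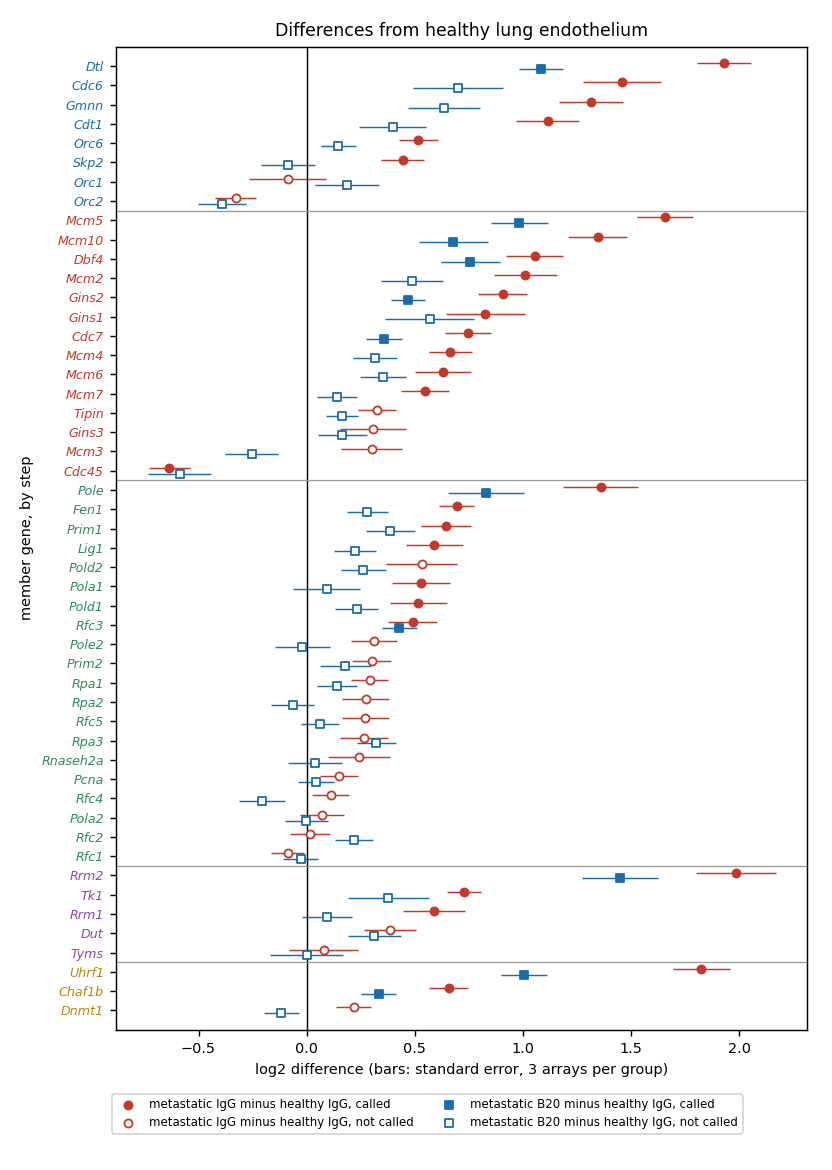
Points give the log2 difference from healthy IgG of each of the 50 genes under IgG (red circles) and under B20 (blue squares), with bars for the standard error and filled symbols for an adjusted p under 0.05. Of the red circles 29 are filled, 28 on the right and Cdc45 on the left, and of the blue squares 11 are filled.

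Polymerases and clamp were uneven. Pole, the catalytic subunit of the leading-strand polymerase epsilon, stood out. Pole measured 7.59, 7.12 and 7.68 in healthy IgG arrays, 8.83, 9.07 and 8.57 in metastatic IgG arrays and 8.02, 8.56 and 8.30 in metastatic B20 arrays. Every metastatic IgG array exceeded every B20 array, the nearest being 8.57 and 8.56, and every B20 array exceeded the healthy ones. Pole rose by 1.36 ± 0.17, or 2.57-fold (adjusted p = 0.00253), whereas its partner subunit Pole2 gave 0.31 ± 0.11 (adjusted p = 0.115). Whether Pole and Pole2 differed from each other was not tested.

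Fen1, Prim1 and Lig1, enzymes of the lagging strand, rose. Fen1 trims the flaps between fragments. The log2 intensity of Fen1 was 11.49, 11.44 and 11.40 in healthy lungs, 12.12, 12.22 and 12.06 in metastatic lungs under IgG and 11.57, 11.88 and 11.72 under B20. Its 3 groups were separate and both of its probe sets were called. Prim1, the catalytic subunit of primase, makes the RNA primers. Without cancer cells the arrays gave 9.42, 9.17 and 9.62, with them 10.02, 10.03 and 10.09 under IgG and 9.80, 9.79 and 9.77 under B20. Lig1 seals the fragments. Lig1 read 8.90, 8.97 and 9.19 without metastases, 9.50, 9.88 and 9.46 with metastases and IgG, and 9.19, 9.20 and 9.34 with metastases and B20. For Lig1 the healthy and B20 arrays met at 9.19. The rises with metastases were 0.69 ± 0.08 for Fen1 (adjusted p = 0.00162), 0.64 ± 0.12 for Prim1 (adjusted p = 0.0121) and 0.59 ± 0.13 for Lig1 (adjusted p = 0.028). The call of Lig1 was lost on leaving out any of the 6 arrays except healthy IgG replicate 3 and metastatic IgG replicate 3 (adjusted p = 0.0541 to 0.0967).

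Pola1 and Pold1, the catalytic subunits of polymerases alpha and delta, rose by 0.53 ± 0.14 and 0.51 ± 0.13 (adjusted p = 0.0491 and 0.0481). Both calls sat at the threshold, and that of Pold1 was lost on leaving out any of the 6 arrays (adjusted p = 0.0503 to 0.146), that of Pola1 on leaving out any of the 6 arrays except healthy IgG replicate 1 (adjusted p = 0.053 to 0.144). Rfc3, of the clamp loader, rose by 0.49 ± 0.11 (adjusted p = 0.032), a call lost on leaving out any of the 6 arrays except metastatic IgG replicate 1 (adjusted p = 0.0732 to 0.108). Other subunits of these complexes did not pass, among them Pola2 (0.07), Prim2 (0.30) and Pold2 (0.53, adjusted p = 0.0888).

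Pcna, the clamp itself, was among the brightest genes on the arrays, at the 97.3 percentile of all genes, and its difference was 0.15 ± 0.09 (adjusted p = 0.354). It measured 12.39, 12.50 and 12.57 in healthy IgG and 12.71, 12.54 and 12.65 in metastatic IgG, with overlap. The single-strand binding subunits Rpa1, Rpa2 and Rpa3 gave 0.29, 0.27 and 0.27, and none passed. Rnaseh2a, the catalytic subunit of the RNase that removes primer RNA, gave 0.24. Of the other clamp loader subunits, Rfc1 gave -0.09, Rfc4 0.11 and Rfc5 0.27. Rfc2 was the flattest gene of the step. In the same order of groups, Rfc2 stood at 10.18, 10.16 and 10.07, then 10.20, 10.00 and 10.26, then 10.37, 10.47 and 10.23. Its 2 highest arrays were of B20, and the difference between metastatic IgG and healthy IgG was 0.02 ± 0.09 (adjusted p = 0.943). Rfc4 depended on the probe set, since its dimmer one gave 0.88 and was called (adjusted p = 0.0106 over all probe sets).

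In nucleotide supply, Rrm2, the small subunit of ribonucleotide reductase and the one made when cells copy DNA, had the largest difference of all 50 genes. Rrm2 measured 9.13, 8.53 and 8.96 in healthy IgG arrays, 10.79, 11.17 and 10.61 in metastatic IgG arrays and 10.11, 10.61 and 10.24 in metastatic B20 arrays. The 3 groups did not overlap, although the lowest metastatic IgG and the highest B20 array both round to 10.61. Rrm2 rose by 1.98 ± 0.18, or 3.96-fold (adjusted p = 0.000585), and its 3 probe sets, all called, ranged from 1.53 to 2.23. Rrm1, the large subunit of the same enzyme, rose by 0.59 ± 0.14 (adjusted p = 0.0398). The 3 probe sets of Rrm1 ranged from 0.00 to 0.59, and 1 was called higher on its own. Healthy lungs gave 10.06, 10.07 and 10.26 for Rrm1, metastatic lungs gave 10.56, 11.05 and 10.54 under IgG, and those under B20 gave 10.26, 10.01 and 10.41. Its B20 arrays overlapped the healthy ones, and the call with metastases was lost on leaving out any of the 6 arrays except metastatic IgG replicate 2 and metastatic IgG replicate 3 (adjusted p = 0.06 to 0.123).

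Tk1, the thymidine kinase that recycles thymidine, rose by 0.73 ± 0.08 (adjusted p = 0.00127). Tk1 read 9.62, 9.67 and 9.74 without metastases, 10.34, 10.38 and 10.48 with metastases and IgG, and 10.48, 10.05 and 9.63 with metastases and B20. The B20 arrays spread from 9.63, near the lowest healthy array, to 10.48. Tyms, which makes thymidylate from scratch, was not called. Its brightest probe set was dim, at the 34.5 percentile of all genes, and how well it detects Tyms was not tested. The log2 intensity of Tyms was 7.99, 8.00 and 7.78 in healthy lungs, 7.83, 8.38 and 7.79 in metastatic lungs under IgG and 8.06, 7.51 and 8.20 under B20. All groups overlapped, the difference was 0.08 ± 0.16 (adjusted p = 0.825), and its 4 probe sets ranged from 0.08 to 0.29 with none called. Dut, which destroys dUTP and yields the precursor for Tyms, gave 0.39 ± 0.12 and did not pass (adjusted p = 0.0882).

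In chromatin copying, Uhrf1, which reads newly copied methylated DNA and brings in Dnmt1, was the leading gene. Uhrf1 measured 8.44, 8.46 and 8.33 in healthy IgG arrays, 10.18, 10.53 and 10.00 in metastatic IgG arrays and 9.20, 9.49 and 9.55 in metastatic B20 arrays. No pair of groups overlapped, and the rise was 1.83 ± 0.13, or 3.54-fold (adjusted p = 0.000176). Its other probe set gave 2.11. Dnmt1, the methyltransferase that copies methylation onto the new strand, differed far less. Its arrays read 10.81, 10.64 and 10.69 for healthy IgG, 10.90, 10.93 and 10.97 for metastatic IgG and 10.60, 10.65 and 10.54 for metastatic B20. Its metastatic IgG arrays lay just above the healthy ones, its B20 arrays reached below them, and the difference with metastases was 0.22 ± 0.08 (adjusted p = 0.145). Chaf1b, a subunit of the complex that places histones on new DNA, rose by 0.66 ± 0.09 (adjusted p = 0.00366). The log2 intensity of Chaf1b was 8.10, 8.21 and 8.22 in healthy lungs, 8.72, 8.97 and 8.81 in metastatic lungs under IgG and 8.42, 8.57 and 8.53 under B20. The 3 groups of Chaf1b were separate in this probe set, and its dimmer probe set, with all arrays between 6.60 and 7.09, gave -0.15.

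When all 115 probe sets were tested on their own, 45 were called higher and 1 lower, against 4.43% of all 34945 probe sets called higher and 2.98% called lower. Those called higher belonged to 28 genes, which are not the same 28 as in the gene test, since Pola1 and Pold1 dropped out and Mcm3 and Rfc4 came in. Of 38 genes with more than 1 probe set, 14 had at least 2 called higher. The sign differed between the probe sets of Orc1, Cdc45, Mcm6, Pola2 and Chaf1b.

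**Figure D4:**
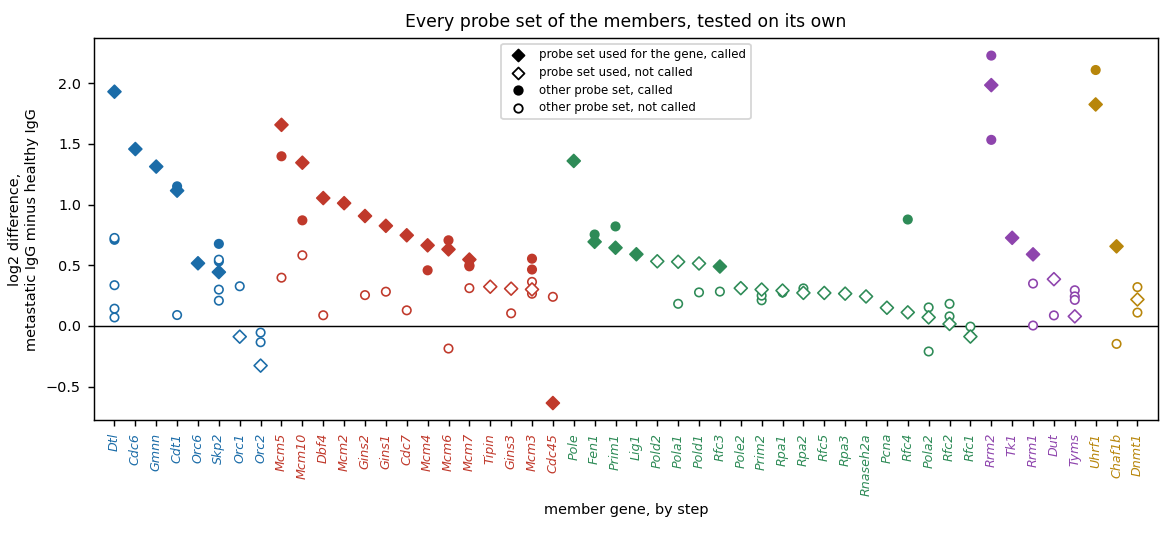
Each symbol is 1 of the 115 probe sets, placed at its log2 difference between metastatic IgG and healthy IgG above its gene, with diamonds for the probe set used for the gene and filled symbols for an adjusted p under 0.05 over all probe sets. The probe sets of Rrm2 and Uhrf1 all lie above 1.5, those of Dtl spread from 0.07 to 1.93, and those of Cdc45 lie on both sides of 0.

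Under B20, most of these genes measured lower than under IgG in metastatic lungs, but none passed the test. Of the 50 genes, 0 were called higher and 0 lower, as over all genes (0% in each direction), and their median log2 difference was -0.33 against -0.01 over all genes. At an unadjusted p under 0.05, 28 of the 50 were lower and 0 higher, where 4.2% of all genes were lower and 3.83% higher. In 28 of the 50, the 3 B20 arrays lay below all 3 metastatic IgG arrays, as in 6.91% of all genes. Of the 50, 45 lay below 0. This comparison and the one before it share the metastatic IgG arrays, so a high value there raises one difference and lowers the other. Of markers of leukocytes other than macrophages, 0 were called, with 7 of 7 above 0 and 2 of them higher at an unadjusted p under 0.05. Their mean log2 level was 7.85, 7.76 and 7.79 in metastatic IgG and 8.00, 8.04 and 8.03 in metastatic B20, without overlap, and their part in the difference of the 50 genes was not tested.

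Licensing showed the lowest median under B20, -0.60, then the helicase with -0.37, nucleotide supply with -0.35, chromatin copying with -0.33 and polymerases and clamp with -0.23. The unadjusted p was under 0.05, with a lower value, for 6 of 8, 8 of 14, 2 of 5, 3 of 3 and 9 of 20 genes of these steps. Without metastatic IgG replicate 2, the highest array, 22 of 50 were lower and 1 higher at an unadjusted p under 0.05, and the median was -0.26.

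The 6 genes with the smallest p came from 3 steps. Dtl measured -0.85 ± 0.13 under B20 relative to IgG, a 1.80-fold lower intensity with a 95% confidence interval of -1.14 to -0.56 and an adjusted p of 0.298 (unadjusted 0.000121). For Uhrf1 the difference was -0.82 ± 0.15 (interval -1.16 to -0.48, adjusted p = 0.342). Skp2 gave -0.53 ± 0.11 and Mcm3 -0.56 ± 0.12 (adjusted p = 0.367 for both). The Mcm3 probe sets all measured lower under B20, from -0.56 to -0.28. Mcm5 gave -0.67 ± 0.14 and Mcm2 -0.52 ± 0.11 (adjusted p = 0.378 for both).

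Other genes with large differences under B20 had wide intervals. Cdc6 gave -0.76 with an interval of -1.36 to -0.16, Cdt1 -0.72 with -1.13 to -0.30, and Gmnn -0.68 with -1.11 to -0.25. In all 3, B20 replicate 1 was the lowest of the metastatic arrays. Rrm2 gave -0.53 (-0.92 to -0.15), Tk1 -0.35 (-0.77 to 0.08) and Tyms -0.08 (-0.55 to 0.39). Only Orc1, Rfc2, Rfc1, Rpa3 and Cdc45 lay above 0, with values up to 0.27 for Orc1.

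**Figure D5:**
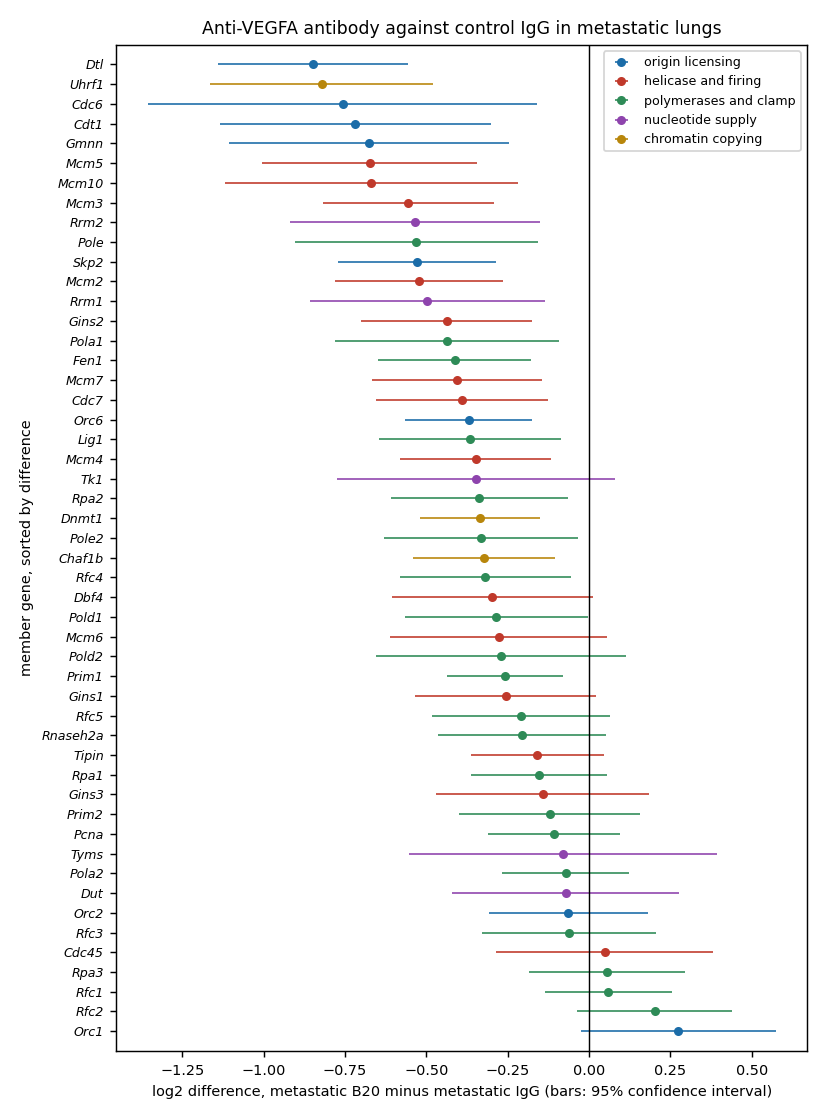
Points give the log2 difference between metastatic B20 and metastatic IgG for each of the 50 genes, sorted, with bars for the 95% confidence interval and colours for the step. Of the 50 points 45 lie left of 0, from -0.85 for Dtl, and the intervals of 28 genes lie wholly left of 0 before adjustment.

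Against healthy lungs, part of the difference was still measured under B20. Between metastatic B20 and healthy IgG, 11 of the 50 genes were called higher and 0 lower, against 4.15% and 2.29% of all genes. The median was 0.23, and 39 lay above 0. This comparison shares its arrays with both of the others. The 11 were Dtl (1.08) in licensing, Mcm5 (0.98), Dbf4 (0.76), Mcm10 (0.68), Gins2 (0.47) and Cdc7 (0.36) at the helicase, Pole (0.83) and Rfc3 (0.43) among polymerases and clamp, Rrm2 (1.45), and Uhrf1 (1.00) and Chaf1b (0.33) in chromatin copying.

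Rrm2 had the largest difference, 1.45 ± 0.18 or 2.73-fold (adjusted p = 0.00272). Dtl stood at 1.08 ± 0.10 (adjusted p = 0.000895), Uhrf1 at 1.00 ± 0.11 (adjusted p = 0.00158) and Mcm5 at 0.98 ± 0.13 (adjusted p = 0.00414). These 4 were called in every run that left out an array, but the call of Dtl was lost with the mean of all its probe sets. The count of 11 was less firm. It was 5 without healthy IgG replicate 2, without metastatic B20 replicate 2 or without metastatic B20 replicate 3, and 6 without healthy IgG replicate 3. The call of Gins2 was lost without healthy IgG replicate 3 (adjusted p = 0.0509), and that of Dbf4 without healthy IgG replicate 2, metastatic B20 replicate 2 or metastatic B20 replicate 3 (adjusted p = 0.0593 to 0.0629). Those of Rfc3, Pole and Mcm10 were lost in 4 to 5 of 6 runs that left out an array, with adjusted p values up to 0.134. Cdc7 and Chaf1b were called in none of the 6 (adjusted p = 0.0502 to 0.143). Cdc6 and Gmnn measured 0.70 and 0.64 above healthy IgG but did not pass (adjusted p = 0.0915 and 0.0636). Skp2, Rrm1 and Pola1, which rose under IgG, measured -0.08, 0.09 and 0.09 under B20.

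Another 72 measured genes of the same processes were set beside the 50. Of these, 18 rose and 1 fell between metastatic IgG and healthy IgG, with a median of 0.12. Over all genes, 5.55% were called higher and 3.46% lower. Factors at the fork rose in 8 of 17, with Top2a, the topoisomerase that untangles copied DNA, at 1.79 ± 0.23 and Dscc1, of the loader that helps hold sister chromatids together, at 1.75 ± 0.16 (adjusted p = 0.00247 and 0.000519). Chromatin factors rose in 5 of 12, among them Mms22l, which acts at damaged forks, at 1.12 ± 0.19 and Hells, a chromatin remodeler, at 1.04 ± 0.19. In nucleotide metabolism 4 of 30 rose, led by the deoxycytidine kinase Dck at 0.99 ± 0.21 and the mitochondrial folate enzyme Mthfd2 at 0.71 ± 0.15, and Dguok, a mitochondrial deoxyguanosine kinase, fell with a difference of -0.36 ± 0.09 (adjusted p = 0.0463). Of the other licensing and firing genes 1 of 13 rose, the helicase Mcm8 at 0.80 ± 0.20. The median of these 13 was 0.00, with 7 above 0 and 6 below, unlike the 0.82 of the 8 licensing genes. Under B20 against IgG, 0 of 72 were called, and the median was -0.11.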

How the data were processed

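RNA of sorted lung ECs was amplified, labelled with biotin and hybridized to Affymetrix Mouse Genome GeneChip arrays. The authors ran RMA (robust multi-array average, with background correction, quantile normalization and summary of each probe set) in Chipster. This gave the deposited log2 intensities of 45101 probe sets in 9 arrays, from 5.38 to 14.8, which were not normalized again. Quantile normalization gives all arrays the same distribution, so a shift common to most genes cannot be seen. No detection calls or scan dates were used here, so whether scan dates differed between the groups was not tested. Read depths do not apply to arrays. Of the probe sets, 34958 name 1 gene in the platform annotation, 932 several and 9211 none. Without controls, 34945 probe sets of 18193 genes were left, and each gene was read from its brightest probe set by mean over the 9 arrays. Dim genes were kept.

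A linear model was fitted to the 6 arrays of each comparison (limma 3.58.1 under R 4.3.3, functions lmFit and eBayes, for a difference in either direction). A call needed an adjusted p under 0.05 by the Benjamini-Hochberg method over all genes. The labels give biological replicates, so p-values measure the spread between these samples. The members, the lists of other genes and markers, and the tests were chosen with earlier results of these data known, so lists are described by counts and medians only. Values in all arrays are given, in each step, for up to 4 genes with the largest difference among those called with metastases and for the flattest gene, for the 6 genes with the smallest p under B20 and for any gene called lower with metastases. Values of some further genes, such as Pcna, were added after they had been seen. Of 72 other pathway genes, up to 2 called ones per list are named.

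The fit was tested on simulated data for metastatic IgG against healthy IgG, with 200 genes changed by known amounts. Of genes changed by 0.5 log2 units, 40.9% were called, against 89.6% at 1 and 100% at 2. A gene not called may thus still differ by such amounts. Alternatives were a joint fit of all arrays, a replicate block, a filter on the dimmest 25% of genes and averages over the probe sets of each gene. Others were omission of probe sets ending in _a_at, _s_at or _x_at, probe sets tested singly, median centring and a second quantile normalization. The last were limma's trend, array weights, the thresholds of the study and each array left out. Promoter windows and coordinates came from RefSeq (GRCm38.p6). Figures were drawn with Python 3.11.15 and matplotlib 3.10.9.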

Additional observations from a re-analysis of the deposited data

How the results depend on the processing

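Between metastatic IgG and healthy IgG, 29 of the 50 genes were called, and 26 to 32 under the joint fit, the filter on dim genes, the mean of probe sets, median centring, the second quantile normalization, limma's trend and array weights. The omission of probe sets ending in _a_at, _s_at or _x_at left 43 of the genes, of which 23 were called. Correlations of deviations from the group means ran from -0.08 to 0.01 for same-numbered arrays and from -0.15 to 0.18 for others. No pairing by replicate number was thus seen, but whether equal numbers were processed together was not tested. The replicate block gave 21 calls. Without each array in turn the count was 21 to 24, and the median difference, 0.52, was 0.42 to 0.59. The mean of all probe sets gave a median of 0.39, single probe sets gave 46 calls of 115, and the thresholds of the study (log2 difference over 0.75, p under 0.05 and adjusted p under 0.25) gave 13 calls. Between metastatic B20 and metastatic IgG, 0 genes were called in every setting run, and the median ranged from -0.38 to -0.26. Between metastatic B20 and healthy IgG, 11 genes were called, against 6 with the replicate block, 19 with limma's trend, 6 with the thresholds of the study and 5 to 13 without each array in turn, with medians from 0.19 to 0.27. The causes were not tested. Over all settings in which the gene could be tested, 16 of the 29 and 3 of the 11 calls were kept. No named value reversed its sign with a call. With 3 arrays a group, the 95% confidence intervals of the differences between B20 and IgG were 0.36 to 1.20 log2 units wide, with a median of 0.55, which limits what can be resolved.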
